A study of Mus musculus with 11 samples.

Results

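The mitotic spindle and checkpoint genes are a set of 31 genes that code for kinases, kinetochore proteins, motors and other factors of chromosome segregation and cytokinesis. They were chosen by name, and each was read from the probe set of that gene alone with the highest mean log2(signal + 16) over 11 arrays. All 31 were on the array, among 12393 genes with such a probe set, and all 31 passed the filter on low values, among 7740 genes tested. They were measured in sporadic B cell lymphomas of E-mu-BRD2 mice on the FVB background, 5 of the transitional and 6 of the marginal severity class, with 1 array of total RNA for each lymphoma. All 11 animals carried the E-mu-BRD2 transgene, which the immunoglobulin heavy chain enhancer E-mu drives in B cells, and every tumour had oligoclonal immunoglobulin. Transitional animals 1 and 2 had severe, 3 mild, and 4 and 5 moderately severe spleen enlargement, and all 5 had failed to nest. Marginal animal 1 had marginal, 2 to 4 mild, and 5 and 6 moderate enlargement. The recorded sign was failure to nest in marginal 2 and 3, a neck, leg or haunch tumour in 1, 4 and 5, and paralysis in 6. Ages, animal numbers and the tissue each RNA came from are not given in the sources used here, so p-values measure the spread between these samples. A further severity class and normal B cells were not analysed here.

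Mitosis begins when cyclin-dependent kinase 1 is switched on, after which Polo and Aurora kinases build the spindle and kinetochores attach chromosomes to it. The spindle assembly checkpoint holds the anaphase-promoting complex, a ubiquitin ligase, in check until every kinetochore is attached. The genes of this programme are transcribed late in the cell cycle and are switched off together in resting cells, so their transcripts can come from any dividing cell in a tissue. In lymphomas they are used as measures of proliferation, Ki-67 being the marker read by pathologists. Many of their promoters carry a cell cycle genes homology region (CHR), a short element near the start site that is bound by the MuvB core of the DREAM repressor and of the MYB-MuvB and FOXM1 activators, and CCAAT boxes, which are bound by NF-Y.

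The promoters were read because the genes varied together over the arrays. RefSeq windows of assembly GRCm38.p6, 250 bases before to 50 after the start site, were matched by symbol for 27 of the 31 genes (not for Aurkb, Kif20a, Tpx2 and Foxm1). The letters TTTGAA and TTCGAA (both read as CHR) and CCAAT were searched on both strands. For 6 genes, 170 bases before to 30 after the start are printed 5′ to 3′ on the gene's strand, with matches on either strand in capitals (TTCAAA and ATTGG are matches on the opposite strand). Hmmr (chr11:40733408-40733607, minus strand) and Cdk1 (chr10:69352883-69353082, minus strand) followed the other members most closely over the arrays. Ube2c (chr2:164769759-164769958, plus strand) had the widest range, Mki67 (chr7:135716350-135716549, minus strand) codes for Ki-67, and Racgap1 (chr15:99651627-99651826, minus strand) followed the others least. Mad2l1 (chr6:66535051-66535250, plus strand) is shown as a window with no match.
Hmmr: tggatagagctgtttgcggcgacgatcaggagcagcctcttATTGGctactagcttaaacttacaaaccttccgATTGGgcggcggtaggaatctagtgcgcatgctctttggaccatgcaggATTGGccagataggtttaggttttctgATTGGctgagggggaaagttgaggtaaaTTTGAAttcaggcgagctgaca
Cdk1: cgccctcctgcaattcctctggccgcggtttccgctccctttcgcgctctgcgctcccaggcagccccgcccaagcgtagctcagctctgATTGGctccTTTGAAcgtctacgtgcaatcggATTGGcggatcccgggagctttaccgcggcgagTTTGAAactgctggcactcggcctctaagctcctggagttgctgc
Ube2c: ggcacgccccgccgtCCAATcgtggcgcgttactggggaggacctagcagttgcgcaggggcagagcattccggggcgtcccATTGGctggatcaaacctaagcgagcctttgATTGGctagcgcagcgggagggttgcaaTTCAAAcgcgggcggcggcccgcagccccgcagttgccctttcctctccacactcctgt
Mki67: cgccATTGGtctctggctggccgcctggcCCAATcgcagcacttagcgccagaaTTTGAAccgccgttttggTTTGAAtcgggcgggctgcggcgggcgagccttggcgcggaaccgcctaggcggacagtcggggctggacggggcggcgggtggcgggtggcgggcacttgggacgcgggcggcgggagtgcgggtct
Racgap1: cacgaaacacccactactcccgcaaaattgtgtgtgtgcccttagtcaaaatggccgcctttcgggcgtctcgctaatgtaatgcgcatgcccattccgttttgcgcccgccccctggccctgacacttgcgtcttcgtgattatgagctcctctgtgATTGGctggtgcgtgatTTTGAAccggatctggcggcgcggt
Mad2l1: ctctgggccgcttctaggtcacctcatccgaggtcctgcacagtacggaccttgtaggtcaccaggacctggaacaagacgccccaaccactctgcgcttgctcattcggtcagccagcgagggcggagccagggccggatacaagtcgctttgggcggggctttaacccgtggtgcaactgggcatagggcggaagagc

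TTTGAA stood in 75.86% of the 29 member windows (Ect2 and Prc1 have 2 overlapping windows each), against 17.89% of all 32851 promoter windows of the same length and 11.89% of the 8185 windows of tested genes. TTCGAA stood in 10.34%, against 1.56% of all windows. CCAAT stood in 79.31%, against 37.41% of all windows, and 72.41% of the member windows held a CHR and a CCAAT, against 7.52%. No CHR match overlapped a CCAAT match. A CHR match that began within 50 bases of the start site was in 72.41% of member windows, against 5.31% of all windows and 3.51% of those of tested genes. By gene, 21 of 27 held a CHR, 21 a CCAAT and 19 both, while Nusap1, Melk, Mad2l1 and Birc5 held neither. The share with a CHR was 65.57% for the 61 windows of other G2/M genes, 16.67% for the 36 of DNA replication genes and 11.76% for the 17 of subunits of the anaphase-promoting complex and its activator Fzr1, and 7 of 14 windows of condensin and cohesin genes held one. The 61 windows were of 56 genes, some of them not on the array, where 46 genes of that list were measured. These shares describe letters in a window and carry no test.

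**Figure D1:**
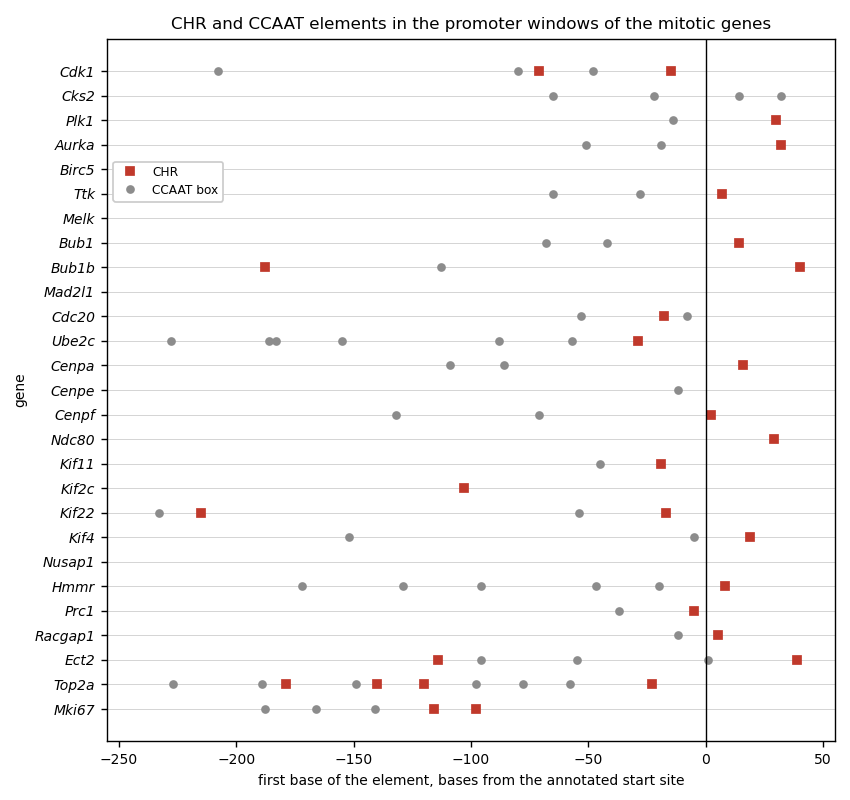
Positions of CHR (red squares) and CCAAT (grey circles) matches in the promoter windows of 27 mitotic genes, 1 window for each gene. The x axis gives the distance of the first base of each match from the annotated start site in bases, and most CHR squares lie within 50 bases of it.

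Over the 11 arrays the median signal ran from 98.8 (transitional 5) to 151 (transitional 2), the ratio of 3-prime to 5-prime Gapdh signal from 0.635 (transitional 5) to 0.839 (marginal 5), and that of Actb from 1.11 (transitional 4) to 1.44 (transitional 3). The number of arrays limits the precision of every comparison.

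Mitotic genes were highest on transitional 4 and 5, at a middle level on marginal 1 and 3, and lowest on transitional 1, transitional 3 and marginal 4. The mean log2 deviation of the 31 genes from their own means over the arrays was 1.44 on transitional 4 and 1.26 on transitional 5. It was -0.31 on transitional 2, -0.90 on transitional 1 and -1.02 on transitional 3, against 0.63 on marginal 1, 0.59 on marginal 3, 0.14 on marginal 6, -0.16 on marginal 2, -0.63 on marginal 5 and -1.05 on marginal 4. Each class therefore held arrays above and below the mean, and the 2 highest arrays were both transitional. In 28 of the 31 genes (not Kif22, Top2a and Foxm1) transitional 4 and 5 stood above the other 9 arrays, a pattern of 12.6% of all 13576 tested probe sets. In 20 genes those arrays together with marginal 1 and 3 stood above the other 7, against 6.65% of tested probe sets. Transitional 4 was the highest array for 19 genes, transitional 5 for 11 and marginal 6 for Kif22. Among the transitional animals the moderately severe spleens went with the high arrays, and both the mild and the severe ones with arrays below the mean. These array orders were seen in the data and then counted, so they describe the arrays and test nothing.

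**Figure D2:**
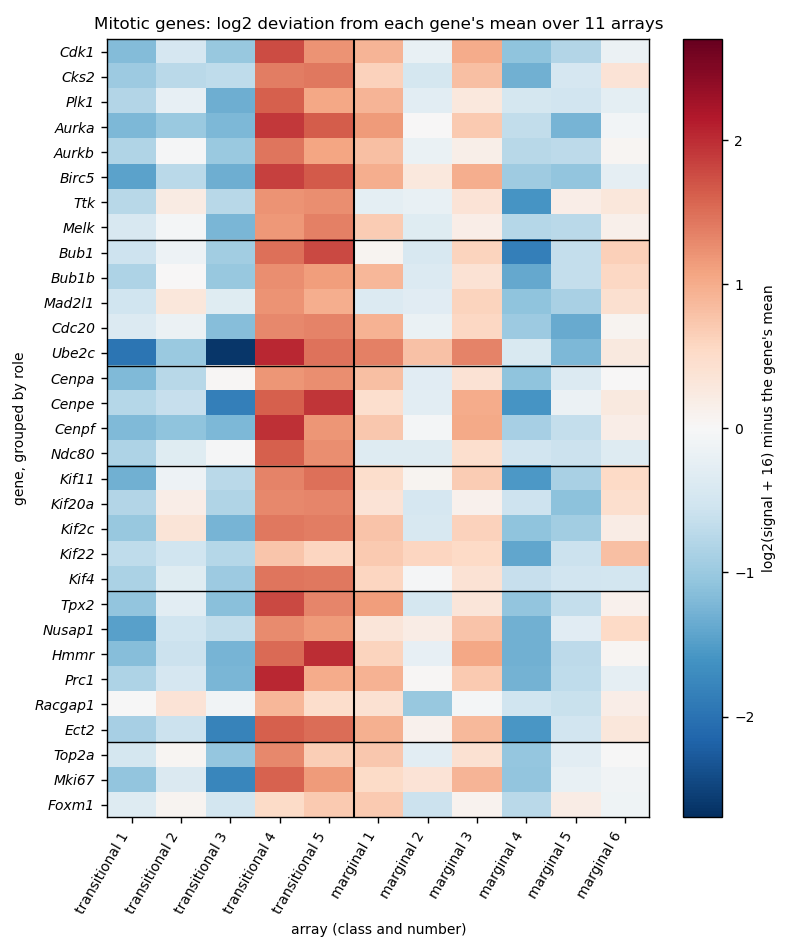
Heat map of log2(signal + 16) minus each gene's mean over 11 arrays, for 31 mitotic genes (rows, grouped by role, with lines between roles) on 5 transitional and 6 marginal arrays (columns). Transitional 4 and 5 are red in all 31 rows, and transitional 1 and marginal 4 are above the gene's mean in 0 rows.

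The kinases and their subunits followed this order. Cdk1, the kinase whose activity drives entry into mitosis, had a signal of 747, 1245, 839, 5864.5 and 3961 on transitional arrays 1 to 5, against 3246, 1483, 3463, 792, 977 and 1531 on marginal arrays 1 to 6. The highest and the lowest signal were both transitional, so the classes overlapped fully. Birc5 (survivin), the subunit that places Aurora B on centromeres, had the widest range of this role, with 878, 1473, 959, 8776 and 7688 on transitional arrays 1 to 5, against 4845.5, 2969.9, 4839, 1241, 1156 and 2065 on marginal arrays 1 to 6. Its transitional signals of 3955 ± 3930 (SD, n = 5) and marginal signals of 2853 ± 1675 (SD, n = 6) differed by -0.001 on the log2 scale (SE 0.68). For Cdk1 the difference was 0.12 (SE 0.59), from 2531 ± 2283 in transitional (SD, n = 5) and 1915 ± 1153 in marginal lymphomas (SD, n = 6). The other 6 differed by 0.04 to 0.43. Aurka, the Aurora kinase of the spindle poles, was at 0.04, and Ttk (MPS1), the kinase that starts the checkpoint signal, was at 0.43. Between them lay Plk1 (Polo-like kinase 1) at 0.12, Cks2, a small partner of Cdk1, at 0.14, Aurkb (Aurora B) at 0.24 and Melk, a kinase abundant in dividing cells, at 0.30.

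Genes of the checkpoint and of the machinery it restrains held the most negative difference of the set and differences close to the most positive. Mad2l1 (MAD2), the checkpoint protein that binds and inhibits Cdc20, had a signal of 1518, 2733, 1778, 5139.7 and 4403 on transitional arrays 1 to 5, against 1708, 1793, 3359, 1032, 1202 and 2980.1 on marginal arrays 1 to 6. Marginal 1 was high for most mitotic genes and low for this one. The difference was 0.60 (SE 0.39), from 3114 ± 1600 in transitional (SD, n = 5) and 2013 ± 950 in marginal lymphomas (SD, n = 6). Ube2c, the ubiquitin-conjugating enzyme that works with the anaphase-promoting complex, had 880.1, 1719, 546, 14224 and 9599 on transitional arrays 1 to 5, against 8892, 6013, 8792.5, 2609, 1500.0 and 4190.4 on marginal arrays 1 to 6. Its signals spanned 26.0-fold, the widest range of the 31 genes, and transitional 1 and 3 lay below all 6 marginal arrays. Its difference was -0.78 (SE 0.83). Bub1 and Bub1b (BUBR1), checkpoint proteins that gather at unattached kinetochores, differed by 0.60 (SE 0.58) and 0.20 (SE 0.51), and Cdc20, the activator of the anaphase-promoting complex that the checkpoint inhibits, by 0.35 (SE 0.52).

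Centromere and kinetochore genes varied in how sharply the high arrays stood out. Cenpe, a kinesin that carries chromosomes to the spindle equator, had a signal of 237, 262, 103, 1299 and 1629 on transitional arrays 1 to 5, against 573.5, 338, 845.5, 127, 369.6 and 499 on marginal arrays 1 to 6. Transitional 4 and 5 were high, and transitional 3 and marginal 4 were lowest. Ndc80, the microtubule-binding core of the outer kinetochore, had 123, 181, 224.5, 737.5 and 575 on transitional arrays 1 to 5, against 177, 178, 324.5, 157, 150.0 and 179 on marginal arrays 1 to 6. Here 5 of 6 marginal arrays lay between 150.0 and 179, and marginal 3 stood above them. Its difference of 0.61 (SE 0.42) was the most positive of the set, from 368 ± 272 in transitional (SD, n = 5) and 194 ± 65.0 in marginal lymphomas (SD, n = 6). Cenpe differed by 0.11 (SE 0.68), Cenpa, the centromeric histone, by 0.20 (SE 0.48) and Cenpf, a large kinetochore protein that gathers in G2, by -0.12 (SE 0.62).

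Among the kinesins, Kif11 (Eg5), the motor that pushes the spindle poles apart, had 186, 435, 282, 1242 and 1363 on transitional arrays 1 to 5, against 672, 501, 784, 152, 253 and 705 on marginal arrays 1 to 6. Marginal 1, 2, 3 and 6 lay between 501 and 784, below the high pair, and marginal 4 was lowest. Its difference was 0.24 (SE 0.57). Kif20a, which brings Aurora B to the spindle midzone, differed by 0.44 (SE 0.46), Kif2c (MCAK), which shortens microtubule ends, by 0.32 (SE 0.56), and Kif4, a chromosome-bound motor, by 0.26 (SE 0.48). Kif22 (Kid), another chromosome-bound motor, was at -0.24 (SE 0.45), and its highest array was marginal 6. Its 2 dimmer probe sets instead had transitional 4 and 5 in the top ranks and differences of 0.0050 and 0.17.

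Genes of spindle assembly and cytokinesis included the member with the smallest p-value. Racgap1, a subunit of the centralspindlin complex that marks the division plane, had a signal of 870.4, 1142, 820.3, 1659.7 and 1234 on transitional arrays 1 to 5, against 1185, 426, 847, 598.5, 574 and 998 on marginal arrays 1 to 6. All 5 transitional signals were at 820 or higher, and marginal 2, 4 and 5 were below 600. The difference was 0.60 (SE 0.29), from 1145 ± 337 in transitional (SD, n = 5) and 772 ± 289 in marginal lymphomas (SD, n = 6), with a 95% interval of -0.02 to 1.22. Ect2, the exchange factor that centralspindlin recruits to switch on RhoA, had 217.5, 272, 108, 1316 and 1217 on transitional arrays 1 to 5, against 822, 455, 776, 130.0, 285 and 518 on marginal arrays 1 to 6. It followed the common order and differed by -0.06 (SE 0.66). Tpx2, an activator of Aurora A, differed by 0.23 (SE 0.58), Hmmr, a protein of spindle poles, by 0.20 (SE 0.64), Prc1, which bundles midzone microtubules, by 0.19 (SE 0.59) and Nusap1, which bundles microtubules at chromosomes, by -0.09 (SE 0.53).

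The last role held genes of chromosome structure and transcription. Mki67 (Ki-67), a coat protein of mitotic chromosomes, had a signal of 2235.5, 3593, 1379, 14271 and 10454 on transitional arrays 1 to 5, against 6747, 6077.5, 8928, 2242, 4078 and 4414 on marginal arrays 1 to 6. Transitional 3 had the lowest and transitional 4 the highest signal, 10.3 times apart. The class means were 6387 ± 5675 in transitional (SD, n = 5) and 5415 ± 2341 in marginal lymphomas (SD, n = 6), and the log2 difference was -0.17 (SE 0.58). As for Birc5, the mean signal was thus higher and the mean log2 lower in the transitional class. Foxm1, a transcription factor of late cell cycle genes, had the narrowest range of the 31, with 109, 150.1, 96.2, 210.3 and 243 on transitional arrays 1 to 5, against 242.5, 90.1, 154, 80.3, 166 and 130.2 on marginal arrays 1 to 6. Marginal 1 and transitional 5 were alike at the top, and the difference was 0.16 (SE 0.31). Top2a, the topoisomerase that untangles sister chromatids, differed by 0.18 (SE 0.42).

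**Figure D3:**
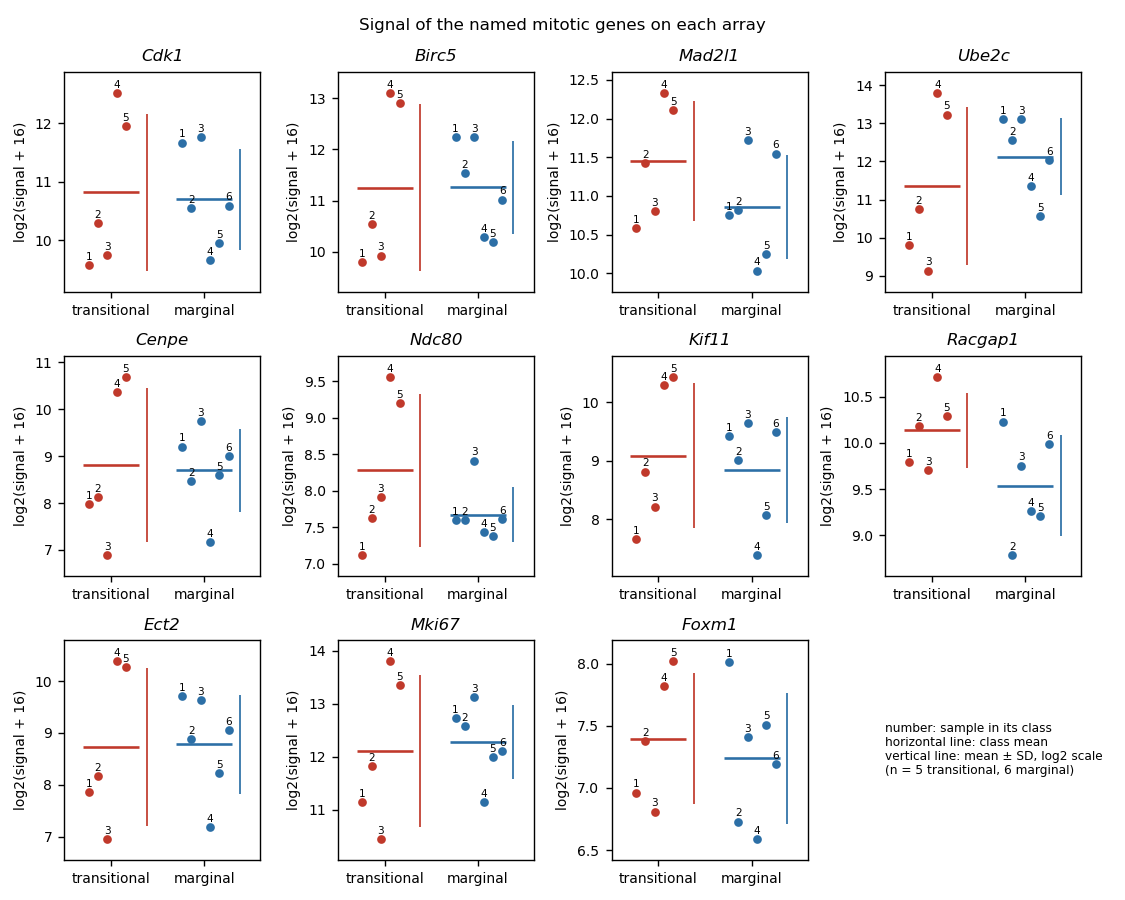
log2(signal + 16) of 11 mitotic genes on each of 5 transitional (red) and 6 marginal (blue) arrays, with the sample number above each point, the class mean as a horizontal line and mean ± SD as a vertical line. In every panel the classes overlap, and transitional 4 and 5 are highest in all but Foxm1, where marginal 1 stands between them.

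The design divides the tumours by severity, and no mitotic gene passed the test between its classes. limma called 0 of 31 between transitional and marginal lymphomas (smallest adjusted p = 0.999), as it called 0% of the 13576 probe sets tested, and 0 of 31 had an unadjusted p under 0.05, against 3.34% of tested probe sets. Racgap1 was nearest, with an unadjusted limma p of 0.058. No member had its transitional arrays all above or all below the marginal ones, a pattern of 0.103% and 0.125% of tested probe sets. The mean log2 was higher in transitional lymphomas for 24 genes and lower for 7 (Birc5, Ube2c, Cenpf, Kif22, Nusap1, Ect2 and Mki67), with a median difference of 0.20, against 42.4% higher and a median of -0.06 over all tested probe sets. This count depended on the scale. By mean signal 30 genes were higher and Kif22 alone was lower, against 46.3% higher of all tested probe sets. When each array was scaled to a common median log2, all tested probe sets shifted up by 0.11, 7713 of 13576 were higher, and Birc5, Nusap1 and Ect2 turned, for 27 members higher and a median of 0.31. The 95% intervals of the differences were wide, from -2.58 to 1.02 for Ube2c and from -0.30 to 1.52 for Ndc80.

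The direction depended on which arrays were in the fit. Without transitional 4 and 5 the mean log2 was lower in transitional lymphomas for 29 of 31 genes (not Mad2l1 and Racgap1), with a median of -0.61, against 47.8% lower over all tested probe sets. Ube2c was then at -2.22, Cenpf at -1.22, Birc5 at -1.17 and Mki67 at -1.15. Those arrays were left out for being the highest of nearly every member, so lower values follow from that choice and no p is given for them. Leaving out 1 array was enough to turn the median, to -0.12 without transitional 4, -0.07 without transitional 5 and -0.02 without marginal 4. It was 0.49 without transitional 3, 0.44 without transitional 1 and 0.36 without marginal 1.

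Red cell precursor genes were highest on the same arrays as the mitotic genes. Of 26 erythroid markers 20 were tested, none at 0, and 15 of the 20 were highest on transitional 4 and 5. Gata1, the transcription factor that sets the red cell fate, had a signal of 77.2, 157, 142, 2973 and 2315 on transitional arrays 1 to 5, against 1516, 636, 888, 314, 179 and 289 on marginal arrays 1 to 6. Tfrc, the transferrin receptor that supplies iron to dividing and haemoglobin-making cells, had 922, 2874, 2106, 20704 and 15913.5 on transitional arrays 1 to 5, against 8999, 6614.5, 11678, 2272, 4662 and 5327 on marginal arrays 1 to 6. Summed signal of the 20 genes ran from 4975 (transitional 1) to 216159 (transitional 4) in transitional and from 47701 (marginal 4) to 136604 (marginal 3) in marginal lymphomas. The lists did not move in parallel everywhere. Marginal 2 had a mean erythroid deviation of 0.90 with a mitotic one of -0.16, and marginal 4, with the lowest mitotic mean, had an erythroid mean of -0.53, above the -1.65 of transitional 2. By mean log2 all 20 erythroid genes were lower in transitional lymphomas, with a median of -1.0, while by mean signal 15 were higher and 5 lower.

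With the erythroid mean as a covariate in the fit, all members but Ube2c had a higher transitional mean, 30 of 31 against 41.8% of tested probe sets (median 0.65). An unadjusted p under 0.05 with a higher mean was reached by 19, against 6.62%. limma called Ndc80 alone of the 31, higher by 0.98 (SE 0.20, adjusted p = 0.0364), where 1.71% of tested probe sets were called in either direction. The erythroid mean came from the same arrays, was highest where the members were, and was lower in the transitional class. Adjusting for it thus moved the members' median up from 0.20 to 0.65. These counts and p-values depend on that choice and are not class differences as measured. Fewer or more cells of a type and a change of RNA per cell cannot be told apart in bulk RNA. The part of erythroid cells in the mitotic signal was not tested.

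Markers of several other cell types also set these arrays apart. The 14 tested of 15 granulocyte precursor markers had mean deviations of 2.75 on transitional 4 and 1.58 on transitional 5, -1.07, -1.22 and -2.97 on transitional 2, 3 and 1, against 3.35 on marginal 1, 2.44 on marginal 3 and -2.29 to 0.49 on the other marginal arrays. Mpo, the myeloperoxidase of early granules, had a signal of 47.2, 174, 149, 10713 and 12950.5 on transitional arrays 1 to 5, against 21288, 1409.5, 10122, 333, 404 and 152 on marginal arrays 1 to 6. Of the same list, Camp, Ltf, Ngp, S100a8, S100a9, Lcn2 and Mmp9 were lower on transitional 5 than on marginal 2, and the others higher. That comparison was made after the values were seen. Summed signal of that list ran from 9422 to 199469 in transitional and from 11918 to 258527 in marginal lymphomas. With its mean as a covariate, a setting added after the data were seen, 28 of 31 mitotic genes were higher, against 42.5% of tested probe sets, with a median of 0.31. limma called 0 members there (smallest adjusted p = 0.533) and 0% of tested probe sets, and 2 members had an unadjusted p under 0.05 with a higher mean, against 1.86%. The 13 tested of 15 B cell markers ran the other way, with mean deviations of -2.04 on transitional 4 and -2.20 on transitional 5 and -0.28 to 1.39 on the other 9 arrays. Cd79a, a signalling chain of the B cell receptor, had a signal of 7326, 6723, 11303, 2005 and 910.0 on transitional arrays 1 to 5, against 4149, 8969, 7209.6, 16736, 13479 and 7568 on marginal arrays 1 to 6. Summed B cell signal ran from 8350 (transitional 5) to 83801 (transitional 3) in transitional and from 31358 (marginal 1) to 107602 (marginal 4) in marginal lymphomas. None of these 13 was listed at 0 on any array, but Pax5, the factor that keeps B cell identity, was at 4.2 on transitional 4 and 12.2 on transitional 5, against 58.7 to 127.5 on the marginal arrays. By mean deviation, T cell, natural killer and plasma cell markers were lowest on these arrays too. Mean deviations of the 9 tested of 13 T cell markers were -1.20 on transitional 4 and -3.45 on transitional 5, and -0.92 to 2.20 on the other arrays. The 6 tested of 10 natural killer markers were at -1.12 and -1.48, against -1.04 to 1.91, and the 7 tested of 9 plasma cell markers at -1.38 and -1.10, against -0.75 to 0.92. The 3 tested of 9 germinal centre markers were instead lowest on marginal 6, at -1.53, against -1.09 on transitional 4 and -0.78 on transitional 5. So were the 4 tested of 10 pro-B and pre-B markers, at -0.96, against -0.77 and -0.93. Summed T cell signal ran from 279 to 27053 in transitional and from 3117 to 9560 in marginal lymphomas. That of natural killer markers ran from 799 to 10664 and from 1006 to 4283. That of plasma cell markers ran from 14007 (transitional 2) to 42366 and from 10616 (marginal 6) to 40129. The lowest plasma cell sums were thus not on transitional 4 or 5. Transitional 2 stood apart by its macrophage markers, at 2.37 for the 9 tested of 11, and by the 2 tested of 10 stroma markers, at 4.68, with a mitotic mean of -0.31. The part of these cells in the mitotic signal was not tested.

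**Figure D4:**
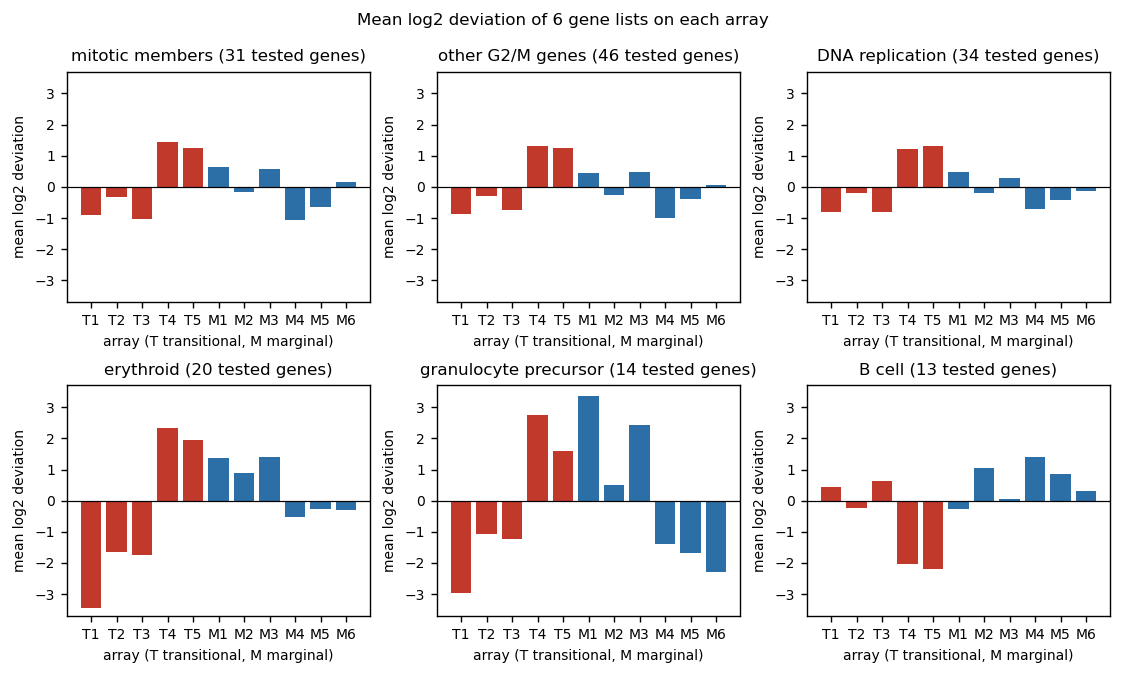
Mean log2 deviation from each gene's mean over 11 arrays, for 6 lists of tested genes, on transitional (T, red) and marginal (M, blue) arrays. The 3 cell cycle lists are highest on T4 and T5, as is the erythroid list, while the granulocyte precursor list is highest on M1 and the B cell list is lowest on T4 and T5.

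**Figure D5:**
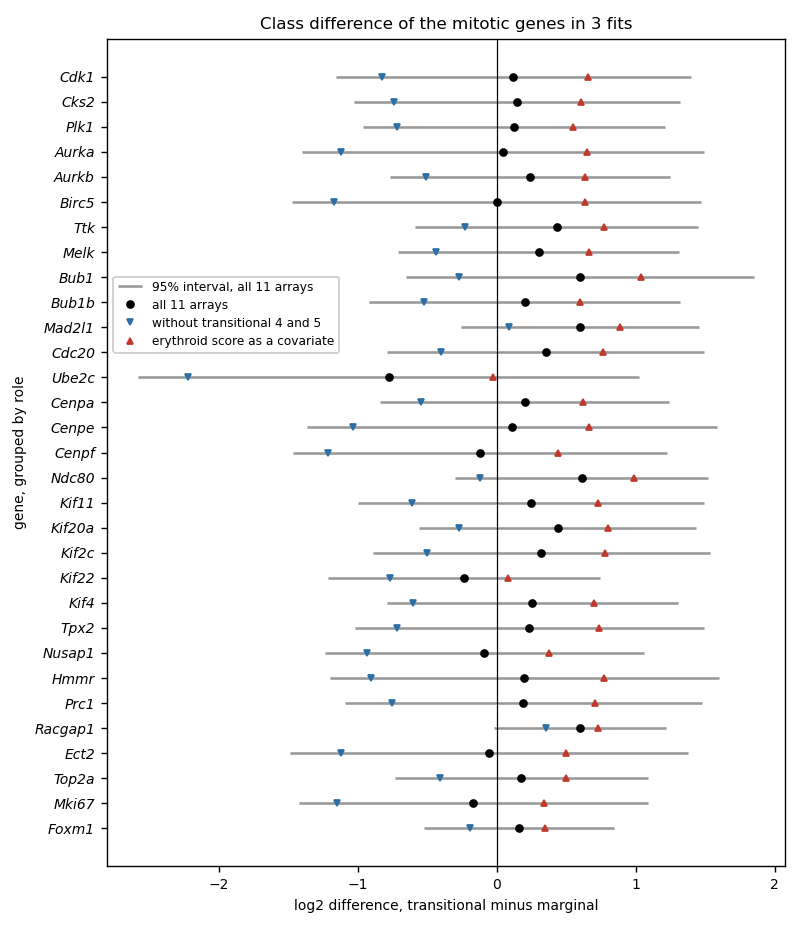
log2 difference, transitional minus marginal, of 31 mitotic genes (rows, grouped by role) in 3 fits: all 11 arrays with the 95% interval (black circles and grey lines), without transitional 4 and 5 (blue triangles) and with the erythroid mean as a covariate (red triangles). Every interval spans 0, the blue triangles lie below 0 for 29 genes and the red ones above 0 for 30.

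The 31 genes varied together and more than most of the array. The SD of log2(signal + 16) over the 11 arrays had a median of 0.95 (0.51 for Foxm1 to 1.55 for Ube2c), and all 31 were above the median of all tested probe sets, 0.48. So were 44 of 46 other G2/M genes, 32 of 34 DNA replication genes and 13 of 13 cell cycle inhibitor and quiescence genes. Their median SDs were 0.89, 0.78 and 0.67, so a wide spread was not particular to the mitotic set. Over the 465 pairs of members, which share arrays and their scaling, Pearson's r had a median of 0.879, lay above 0.9 in 181 pairs, and ran from 0.365 (Ube2c with Racgap1) to 0.988 (Aurkb with Tpx2). Without transitional 4 and 5 the median was 0.790, and within the 6 marginal arrays it was 0.827. Against the mean of the other 30, r was highest for Hmmr (0.982) and Cdk1 (0.980) and lowest for Racgap1 (0.652), Foxm1 (0.804), Ndc80 (0.816) and Mad2l1 (0.834). The last group holds the 3 members with the smallest class p-values. These correlations are descriptions, and no such median was computed for other sets of genes.

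Most further probe sets of the same genes were also highest on transitional 4 and 5. For 12 genes there were 19 further tested probe sets, whose r with the brightest had a median of 0.942 and a range of 0.769 (Kif22) to 0.987 (Hmmr). Transitional 4 and 5 took the top ranks in 15 of the 19. The class differences of the 3 Cdc20 probe sets were 0.35, 0.55 and 0.97 (SE 0.52, 0.56 and 0.68), and the second Racgap1 probe set was at 0.44 (SE 0.35), against 0.60 for the brightest. Brightest probe sets of Kif22, Aurkb, Cdc20 and Kif2c are of a type (x) that can cross-hybridise with other transcripts.

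Spleen enlargement, recorded for each animal, partly crosses class. No mitotic gene passed a test for a trend with its grade, ranked 1 (marginal) to 5 (severe). limma called 0 of 31 and 0% of tested probe sets, with an unadjusted p under 0.05 for 0 members, against 2.15% of probe sets. The slope was positive for 22 genes, against 45.1% of probe sets, with a median of 0.03 on the log2 scale for each grade. With class in the model 13 slopes were positive, against 53.4% of probe sets, the median was -0.03, and 0 of 31 and 0% were called, with 2.2% at an unadjusted p under 0.05. The directions depended on the arrays. With array weights 24 slopes on grade were negative (median -0.11), against 47.9% of probe sets, and with class in the model as well all 31 were (median -0.59), against 43.2%. There 0 of 31 and 0% were called, and 11 members had an unadjusted p under 0.05 with a negative slope, against 9.3%. With 1 array left out, between 11 (without transitional 4) and 31 (without transitional 1) slopes on grade were positive. With class in the model they also turned on transitional 3, the mild transitional animal. Without it the transitional arrays hold the moderately severe pair, high for mitotic genes, and the severe pair, low for them, and all 31 slopes were negative. Aurka was then called at -1.39 for each grade (SE 0.36, adjusted p = 0.0434), 1 of 31 members, where 3.71% of tested probe sets were called with a negative slope and 8.43% in either direction. That order of the transitional arrays had already been seen in these data. The call therefore does not test grade apart from it.

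Other cell cycle genes varied over the arrays to different degrees. Of the 46 tested other G2/M genes 40 were higher in transitional lymphomas by mean log2 (median 0.21), and none passed (limma adjusted p = 0.999), nor did any of 34 DNA replication genes, of which 29 were higher, with a median of 0.23. The smallest p-values were those of Cenpq, a centromere protein, at 0.75 (SE 0.37) and Zwilch, a subunit of a checkpoint complex at kinetochores, at 0.69 (SE 0.42), and of the clamp loader subunit Rfc3 at 0.59 (SE 0.32) and the origin recognition subunit Orc6 at 0.61 (SE 0.42). Both lists had their highest means on transitional 4 and 5, 1.30 and 1.23 for G2/M genes and 1.21 and 1.30 for replication genes. Subunits of the anaphase-promoting complex, the partner of Cdc20 and Ube2c, were flatter. The median SD of 13 tested subunits over the arrays was 0.32, 0 of 13 lay above the median of all tested probe sets, and 10 were higher by mean log2, with a median over the 13 of 0.06. Fzr1 (CDH1), an activator of the complex like Cdc20, had an SD of 0.79 and its highest signal, 2477.5, on transitional 4. The 2 genes of this list with the smallest p were Cdc26 at 0.26 (SE 0.20) and Anapc2 at -0.23 (SE 0.18). Of 14 condensin and cohesin genes 9 were higher, with a median of 0.14. Ncaph2, of condensin II, was at 0.50 (SE 0.23) and Pds5a, a regulator of cohesin, at -0.51 (SE 0.26), and 0 of the 14 passed.

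Regulators of the programme did not share 1 direction. Of 13 tested genes of the DREAM, MuvB and MYB list 7 were higher, with a median of 0.001, and 0 passed, with E2f5, an E2F of the repressor class, at -0.34 (SE 0.28) and the MuvB subunit Lin9 at 0.31 (SE 0.26). Mybl2 (B-MYB), the MYB partner of MuvB, was chosen after its values were seen. It had a signal of 123.5, 119, 137, 1130.1 and 692 on transitional arrays 1 to 5, against 680.2, 248.5, 404, 86.8, 165 and 182 on marginal arrays 1 to 6. As for the mitotic means, transitional 4 and 5 and marginal 1 and 3 were highest and marginal 4 was lowest. Its lowest transitional array was transitional 2, unlike for those means. Transitional 4 and 5 stood above the other arrays for 5 of the 13 genes of this list. Inhibitors and quiescence genes were lower by mean log2 for 10 of 13 tested (median -0.27), against 7826 of 13576 tested probe sets. By mean signal 7 of the 13 were lower and 6 higher. The 13 had a mean deviation of -0.13 on transitional 4 and 0.27 on transitional 5, within the -0.46 to 0.57 of the other arrays. Btg1, an antiproliferative gene of resting lymphocytes, was at -0.62 (SE 0.33) and Foxo1, a transcription factor of B cells that restrains the cycle, at -0.94 (SE 0.54), and 0 of the 13 passed (limma adjusted p = 0.999).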

How the data were processed

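Total RNA of 11 lymphomas was transcribed into biotin-labelled cRNA from cDNA primed with poly-dT, per the labels' protocols, and hybridised to 1 array each. The deposited intensities are linear and come from MAS5, per the submitters' processing notes, which name no version. They were not renormalized. Their 2% trimmed mean is 500.2 on every array, which hides any shift shared by most transcripts. No scan or batch record was used.

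Of 22690 probe sets, 64 controls were left out, 16 was added before log2, and the upper 60% by mean over all arrays were tested (13576). The offset understates differences of dim probe sets. GEO's platform annotation, brought up to date by Entrez identifier against RefSeq (GRCm38.p6), named the genes: 20380 probe sets had 1 gene, 691 several and 1555 none. Classes (transitional minus marginal) and spleen grade, alone and with class, were tested with limma 3.58.1 in R 4.3.3 (lmFit, eBayes with trend, two-sided, Benjamini-Hochberg adjusted p 0.05 over all tested probe sets), after a check on simulated data. Tables, promoter matches and figures were made with Python 3.11.15 (pandas 2.3.3, matplotlib 3.10.9).

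Members and lists were chosen with earlier results of these data known. Values on every array are given for Mki67, Foxm1 and Cdk1, the 3 members with the smallest class p, the widest range in each role and the narrowest overall. Of each described list the 2 genes with the smallest p are named. Mybl2, Fzr1, Gata1, Tfrc, Mpo, Cd79a and Pax5 were chosen after their values were seen. Each array was left out in turn, and further fits used offsets of 1 and 64, quantile or median scaling, all probe sets or the upper 40%, no eBayes trend, weights for arrays, a block for sample number, gene means over probe sets, animals that failed to nest, the arrays other than transitional 4 and 5, and erythroid or (added later) granulocyte precursor covariates.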

Additional observations from a re-analysis of the deposited data

Results flagged for a closer look

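Among the 62 combinations of a mitotic gene and a class, 2 had an array far from the others of its class by Dixon's test. Chance gives about 1 in 20 such groups. Ttk, the checkpoint kinase, had a signal of 68.3 on marginal 4, against 198 on marginal 1, the nearest of the other marginal arrays. Ndc80, the outer kinetochore gene, had a signal of 324.5 on marginal 3, against 179 on marginal 6, the nearest of the others. Marginal 4 was also among the lowest arrays for most other mitotic genes, and marginal 3 among the higher ones.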

How the results depend on the processing

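Between classes the count of called probe sets stayed at 0 under all alternatives but the erythroid covariate, which called 232, and Ndc80 passed there at 0.98 (adjusted p = 0.0364). The members' median (0.20) was -0.61 without transitional 4 and 5, and lay between -0.12 (without transitional 4) and 0.49 (without transitional 3) when 1 array was left out. It was -0.36 with array weights, where 24 of 31 members were lower, and 0.004 among animals that failed to nest. The grade trend with class called 0 to 1145 probe sets when 1 array was left out, with 1145 without transitional 3. With the sample number as a block, 0 probe sets were called and the members' median was 0.22. Samples with the same number did not deviate together from their class means (correlations of -0.45 to -0.09). No pairing by number was thus seen, but the pairs are few and a batch shared by number was not tested. With the block no member's call changed.

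Differences of several members turned sign, Ndc80 (0.61) among them. Without transitional 4 and 5 they were -0.83 for Cdk1, -1.03 for Cenpe, -0.61 for Kif11, -0.12 for Ndc80 and -0.19 for Foxm1. Array weights gave -0.55 for Cdk1, -0.60 for Cenpe and -0.39 for Kif11, and animals that failed to nest -0.34, -0.30 and -0.25 for the same genes. The erythroid covariate gave 0.64 for Birc5, 0.50 for Ect2 and 0.34 for Mki67, the granulocyte precursor covariate 0.16 for Birc5 and 0.083 for Ect2, median scaling 0.11 for Birc5 and 0.055 for Ect2, and the offset of 64 gave 0.0076 for Birc5. With 1 array left out the range was -0.31 to 0.43 for Cdk1, -0.46 to 0.36 for Birc5, -0.36 to 0.59 for Cenpe, -0.093 to 0.60 for Kif11, -0.47 to 0.39 for Ect2 and -0.59 to 0.25 for Mki67. Mad2l1, Racgap1 and Ube2c kept their sign in all alternatives, but not their size. Ube2c was at -0.025 with the erythroid covariate, and Mad2l1 at 0.084 without transitional 4 and 5. The cause of these turns was not tested.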
